A study of Homo sapiens with 10 samples.

Results

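The 4 libraries described here compared the 2 ways of crosslinking RNA to protein that the study set against each other in HEK293, an established human embryonic kidney cell line. One group (4SU_365XL, libraries A and B) was fed 4-thiouridine (4SU) at 1 mM for 12 to 14 h and then irradiated at 365 nm. The other group (NO4SU_254XL, libraries A and B) received no modified nucleoside and was irradiated at 254 nm. These 4 of the 10 libraries of the series were chosen by the treatment in their titles. Beside them stand 2 libraries with 4SU and no crosslinking (4SU_NOXL) and 2 untreated libraries (NO4SU_NOXL), and all 8 held polyadenylated RNA of cells grown in the same medium. The 2 groups differed in 4SU and in wavelength at once, so these cannot be told apart in the comparison itself. The labels do not say whether libraries A and B are separate cultures, so p-values cover no more than the spread among these samples. In the text below, the 365 nm libraries are those of 4SU_365XL and the 254 nm libraries those of NO4SU_254XL, and paired values stand in the order A, B. Where 1 pair of values is set against another with no group named, the first is from the 365 nm and the second from the 254 nm libraries.

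4SU is a uridine analogue that cells build into new RNA in place of uridine. Under long-wave ultraviolet light it links to amino acids that touch it, which is the basis of photoactivatable crosslinking and immunoprecipitation (PAR-CLIP). Light at 254 nm is absorbed by the natural bases and links them to protein without any analogue, and it also damages nucleic acids and sets off the cell's ultraviolet response. The series addressed such methods, and these libraries counted tags from the polyadenylated RNA recovered after each procedure. How much of each mRNA the cells held was not measured separately, so levels below are levels in the libraries.

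The 365 nm libraries held 2402450 and 2869446 tags and the 254 nm libraries 2238569 and 2635373, so that 3 tags equalled 1.05 to 1.34 tags per 1000000 in them. Replicates resembled each other more than they resembled the other procedure: Pearson's r of log2 levels across genes was 0.973 between the 365 nm libraries, 0.968 between the 254 nm libraries and 0.839 to 0.842 between groups, where genes are not independent replicates. Of 14 markers of HEK293 cells used for the check, all were listed in the files, and LHX1 and GRIA2 were at 0 in the 4 crosslinked libraries. Their summed level was 397 to 499 normalised counts per 1000000 tags (CPM) in the 365 nm libraries and 386 to 495 CPM in the 254 nm libraries. Of 12 blood cell markers 8 were listed and 7 were at 0, PTPRC, CD3E and NKG7 among them. The summed level of 115 to 173 against 51.8 to 72.8 CPM thus came from 1 marker, with a log2 fold change of 1.16. Of 10 fibroblast markers 7 were listed, and COL1A2, DCN, FAP and THY1 were at 0. COL1A1 measured 57.2 and 63.7 CPM against 12.3 and 15.6, most of a summed level of 61.7 to 72.8 against 14.1 to 17.6 CPM. Of 11 epithelial markers 10 were listed, and they summed to 1206 to 1403 against 943 to 1157 CPM, with KRT1 and KRT7 at 0. Their part in the results below was not tested.

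Normalised tag levels differed between the procedures for 27.7% of the genes, in both directions. Of 13730 tested genes 2092 were higher in the 365 nm libraries (15.2%) and 1710 were lower (12.5%) at an adjusted p under 0.05 in edgeR's quasi-likelihood test, and 5290 had an unadjusted p under 0.05. The change was over 2-fold for 1985 of the higher and 1641 of the lower genes. Both libraries of one group lay beyond both of the other for 2091 of the 2092 and 1708 of the 1710, as for 31.1% (higher) and 34.9% (lower) of all tested genes. The calls of 891 higher and 338 lower genes held in each of 8 fits that left out 1 library. The balance of directions depended on the scaling: higher genes made up 55.0% of calls with TMM factors, 67.2% with RLE factors, 60.7% with upper-quartile factors, 70.8% with DESeq2, 60.4% with the length trend removed and 9.68% with library totals alone. The median log2 fold change of all genes moved with it, from -0.10 with TMM factors to 0.08 with RLE factors, 0.09 with DESeq2, -0.02 with upper-quartile factors and -1.08 with library totals. Levels and changes below use TMM factors, and group medians are read against -0.10. With library totals 631 of the 13730 genes were higher and 5885 lower. List counts and medians with library totals are read against these and -1.08. Single libraries mattered as well: 1349 genes were higher and 773 lower without 365 nm library A, 1379 and 628 without 365 nm library B, and 1267 and 969 without 254 nm library A. In the pathway lists below, counts of 3 or fewer called members also moved over 1.5 times in at least 1 fit without a library.

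The largest increases, under a rule that took well-expressed genes past the test with groups apart, reached 28.3-fold. MSN, which encodes moesin, a linker between actin and the plasma membrane, measured 807 and 726 CPM in the 365 nm libraries and 35.9 and 18.1 CPM in the 254 nm libraries. Its log2 fold change was 4.82 (SE 0.42, edgeR adjusted p 5.23e-11). Without crosslinking it stood between the 2 procedures, at 93.0 and 102 CPM in untreated cells and 69.6 and 90.6 CPM with 4SU. ACTR2, a subunit of the Arp2/3 complex that nucleates branched actin, measured 519 and 574 CPM in the 365 nm libraries and 26.4 and 14.2 CPM in the 254 nm libraries (log2 fold change 4.75, SE 0.41, edgeR adjusted p 5.23e-11). PEG10, an imprinted gene derived from a retrotransposon, measured 2010.1 and 2238 CPM in the 365 nm libraries and 101 and 62.0 CPM in the 254 nm libraries (log2 fold change 4.70, SE 0.47, edgeR adjusted p 7.57e-10). All 3 genes were above their level without crosslinking after 365 nm and below it after 254 nm, with no overlap between groups. Separation of the 2 crosslinked groups from each other was required by the rule.

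The other 9 of the 12 largest increases ran from a log2 fold change of 3.95 to 4.41. TXNDC16, a protein with thioredoxin domains, measured 193 and 176 CPM against 11.4 and 5.86. CPE, the carboxypeptidase that trims neuropeptides and prohormones, measured 1229 and 656 CPM against 64.1 and 41.5. PRKDC, the catalytic subunit of the DNA-dependent protein kinase, measured 960.2 and 1085 CPM against 66.3 and 51.8, from tags that were partly split between transcripts. NNT, the mitochondrial transhydrogenase that makes NADPH, measured 472 and 447 CPM against 34.99 and 21.5. TPP1, a lysosomal peptidase, measured 377 and 298 CPM against 29.5 and 13.7. CD109, a cell surface protein held by a lipid anchor, measured 68.4 and 49.7 CPM against 4.09 and 3.42, also from split tags. The last 3 of the 12 were matrix proteins: NID1, FBN2 and COL14A1. All 12 were 15.4-fold to 28.3-fold higher in the 365 nm libraries, and each kept its call without any 1 library and under every scaling tried.

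The 12 largest decreases ran from 7.98-fold to 18.7-fold, in mRNAs of varied function. CCDC71 measured 3.37 and 2.10 CPM in the 365 nm libraries and 57.3 and 41.5 CPM in the 254 nm libraries (log2 fold change -4.22, SE 0.55, edgeR adjusted p 1.70e-07). It held 3 and 3 tags in the 365 nm libraries. RAB9A, a small GTPase of late endosomes, measured 4.49 and 4.202 CPM in the 365 nm libraries and 61.8 and 40.0 CPM in the 254 nm libraries (log2 fold change -3.55, SE 0.51, edgeR adjusted p 9.06e-07). CCNE1, the cyclin that drives entry into S phase, measured 7.85 and 7.70 CPM in the 365 nm libraries and 77.2 and 72.3 CPM in the 254 nm libraries (log2 fold change -3.26, SE 0.42, edgeR adjusted p 1.49e-07). MYC, the growth-promoting transcription factor, measured 23.6 and 18.2 CPM in the 365 nm libraries and 179 and 152 CPM in the 254 nm libraries (log2 fold change -3.01, SE 0.39, edgeR adjusted p 1.56e-07). The highest 365 nm library was below the lowest 254 nm library for these 4 genes, as the rule for choosing them required.

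SQLE, which makes squalene epoxide in cholesterol synthesis, measured 17.9 and 18.2 CPM against 233 and 108 and fell by 3.24 on the log2 scale. MSMO1, a demethylase later in the same pathway, held 3 tags in the 365 nm libraries and 84 in the 254 nm libraries, a log2 ratio of -3.93 with a 95% exact counting interval from -6.24 to -2.34. HYAL2, a lysosomal and cell surface hyaluronidase, measured 4.49 and 9.10 CPM against 76.3 and 64.0. FADD, the adaptor of death receptors, measured 7.85 and 2.80 CPM against 36.4 and 48.3. CHMP6, a subunit of the ESCRT-III membrane scission machinery, measured 11.2 and 12.6 CPM against 93.6 and 105. TMEM177 measured 4.49 and 7.70 CPM against 69.5 and 45.9, and RTL10 and HPS6, both with split tags, 2.24 and 5.60 CPM against 79.5 and 39.1, and 5.61 and 4.90 CPM against 54.5 and 28.8. In the plot of the 24 genes by library, both 254 nm libraries were above both untreated ones for CCDC71, RAB9A, HYAL2, CCNE1, TMEM177, FADD, CHMP6 and HPS6. They were below them for MSMO1, SQLE and MYC, and the groups overlapped for RTL10.

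**Figure D1:**
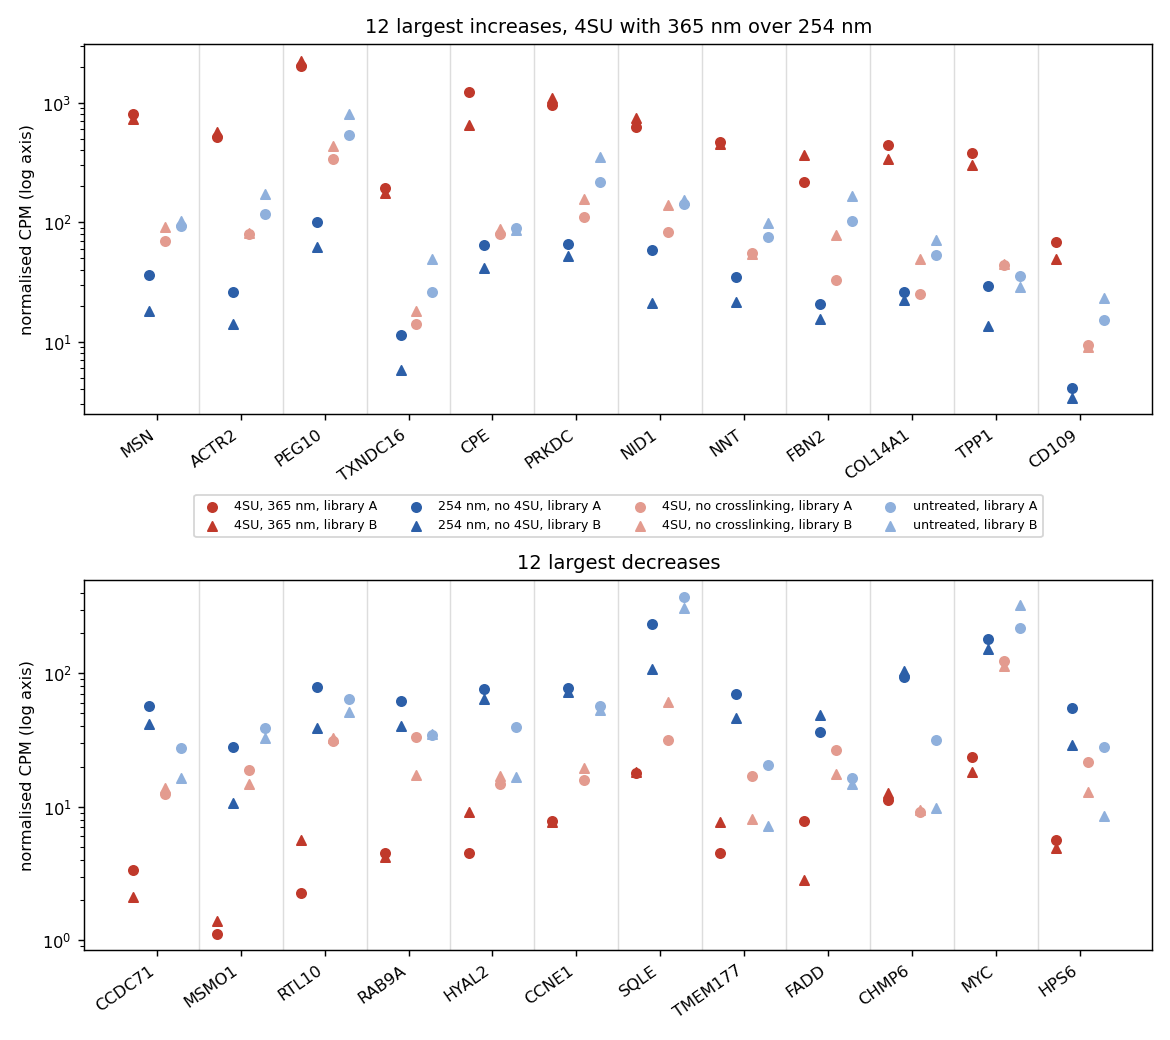
Normalised CPM on a log axis of the 12 largest increases (upper panel) and 12 largest decreases (lower panel) in the 8 libraries; circles are libraries A, triangles libraries B. The 365 nm libraries lie above all others for every gene of the upper panel, with MSN at 807 and 726 CPM, and below both 254 nm libraries for every gene of the lower panel. Separation of the 365 nm from the 254 nm libraries was a condition for choosing these genes.

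Because 4SU replaces uridine, the first 120 bases of the coding sequence of the 2 leading genes in each direction are printed here with each uridine position as a capital T. They are the spliced strand of the mRNA, 5′ to 3′, from GENCODE 29 transcripts on GRCh38. MSN lies at chrX:65667670-65741931 on the plus strand in 13 exons, ACTR2 at chr2:65227837-65270146 on the plus strand in 10 exons, CCDC71 at chr3:49162535-49166321 on the minus strand in 2 exons and RAB9A at chrX:13689125-13710506 on the plus strand in 3 exons. CCDC71 and RAB9A are the decreases shown because the tags of MSMO1 and RTL10 were split.
MSN: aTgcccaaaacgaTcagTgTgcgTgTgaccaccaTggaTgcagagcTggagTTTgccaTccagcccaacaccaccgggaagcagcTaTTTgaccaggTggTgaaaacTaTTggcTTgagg
ACTR2: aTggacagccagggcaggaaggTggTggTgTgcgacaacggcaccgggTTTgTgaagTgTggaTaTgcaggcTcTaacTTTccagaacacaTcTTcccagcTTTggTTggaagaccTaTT
CCDC71: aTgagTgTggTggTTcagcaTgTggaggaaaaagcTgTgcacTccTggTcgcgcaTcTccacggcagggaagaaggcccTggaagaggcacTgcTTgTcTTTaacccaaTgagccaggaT
RAB9A: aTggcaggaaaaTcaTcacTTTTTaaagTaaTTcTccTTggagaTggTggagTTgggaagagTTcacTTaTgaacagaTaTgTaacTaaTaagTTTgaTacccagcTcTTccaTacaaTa
The stretches hold 24, 29, 25 and 37 uridine positions of 120. Over the whole transcript uridine made up 24.3% in MSN, 31.5% in ACTR2, 18.1% in CCDC71 and 30.8% in RAB9A, so the 2 genes that were higher and the 2 that were lower overlapped in uridine content. The GENCODE transcript is 2039 nt for RAB9A and 2685 nt for ACTR2, where the deposited lengths are 1097 and 3944 nt.

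mRNAs of the extracellular matrix, the collagens, laminins, fibrillins and related proteins that cells secrete to build basement membranes, were higher in the 365 nm libraries for 43 of 48 tested genes, and 0 were lower. This list of 48 tested genes was drawn up from symbols after the leading genes had been seen, so its counts are a description. The median log2 fold change was 2.76. FN1, fibronectin, measured 374 and 426 CPM against 26.8 and 29.3 (log2 fold change 3.83). NID1, the nidogen that bridges laminin and collagen IV, measured 628 and 743 CPM against 58.6 and 20.999, and NID2 251 and 246 CPM against 27.7 and 21.5. LAMB1 and LAMC1, chains shared by many laminins, measured 619 and 575 CPM against 80.4 and 79.1, and 636 and 593 CPM against 94.1 and 82.5. COL4A1 and COL4A2, the collagen chains of nearly all basement membranes, measured 218 and 275 CPM against 31.8 and 29.3, and 868 and 691 CPM against 93.6 and 76.7. SPARC, a collagen-binding glycoprotein, measured 130.1 and 82.6 CPM against 13.6 and 2.93 from split tags. The fibrillin FBN2 measured 218 and 366 CPM against 20.9 and 15.6, and COL14A1 439 and 335 CPM against 25.9 and 22.5.

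Between 38 and 44 of the 48 matrix genes were called higher in each fit that left out 1 library, and 33 with library totals. The list took 0.347% and 0.438% of all tags in the 365 nm libraries and 0.136% and 0.0889% in the 254 nm libraries, without any scaling. The untreated libraries gave 0.282% and 0.275% and those with 4SU alone 0.158% and 0.285%, so the share lay above the untreated level after 365 nm and below it after 254 nm. The crosslinked groups differed by 0.280 percentage points. Because the list was drawn up after the leading genes had been seen, this difference and the counts in other fits are descriptions, and no test applies. COL20A1 had 4 tags in the 365 nm libraries and none in the 254 nm libraries, so its ratio has a lower bound only and it is left out of the plots.

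Chaperones of the endoplasmic reticulum, where secreted and membrane proteins fold, went in both directions. Among 26 tested members 11 were higher and 7 lower, with a median of 0.32, or of -0.68 with library totals (6 higher and 10 lower). CANX, the membrane-bound lectin chaperone calnexin, measured 3165 and 2802 CPM in the 365 nm libraries and 217 and 179.7 CPM in the 254 nm libraries (log2 fold change 3.91, SE 0.46, edgeR adjusted p 2.47e-08). The thiol-disulfide isomerases P4HB, PDIA3, PDIA4 and PDIA6 were 4 of the higher members, P4HB at 2010.1 and 1525 CPM against 376 and 444 and PDIA6 at 1925 and 1927 CPM against 435 and 478. HYOU1, a large Hsp70-type chaperone, measured 427 and 602 CPM against 130.4 and 72.8, and HSP90B1, the Hsp90 of this compartment, 2133 and 2276 CPM against 675 and 720.3. HSPA5, the main Hsp70 (BiP), was on the other side at 98.7 and 132 CPM against 513 and 439.5 (log2 fold change -2.04). DERL2, which exports misfolded proteins, and XBP1, the transcription factor of the unfolded protein response, were also lower, at 21.3 and 22.4 CPM against 56.8 and 89.4, and 43.7 and 18.2 CPM against 119 and 105. The counts fell without single libraries, for higher members to 7 without 365 nm library B and 7 without 254 nm library A, and for lower members to 4 without 365 nm library B and 4 without 254 nm library A. XBP1 lost its call without 365 nm library B. PDIA4, HSP90B1 and HSPA5 had split tags.

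Glycolytic enzymes, which turn glucose into pyruvate and lactate, were another group with mostly higher levels, 8 of 15 against 2 lower, median 1.74. PKM, pyruvate kinase, measured 15143 and 10901 CPM in the 365 nm libraries and 2306 and 2509.6 CPM in the 254 nm libraries from split tags. LDHB, a lactate dehydrogenase subunit, measured 12686 and 9374 CPM against 1862 and 2631, GPI, the enzyme that isomerises glucose 6-phosphate, 8702 and 6470.2 CPM against 1185 and 1236, and ENO1, enolase, 259 and 221 CPM against 29.99 and 23.9. The log2 fold changes of these 4 were 2.44, 2.30, 2.65 and 3.15. The 2 lower members were PFKP, a phosphofructokinase, at -1.02, and the glucose transporter SLC2A1, at -1.42. PFKP was not called without 365 nm library A, 254 nm library A or 254 nm library B, and SLC2A1 not without 365 nm library B. With library totals 7 members were higher and 6 lower.

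The list took 1.70% and 1.70% of tags in the 365 nm libraries and 0.779% and 0.732% in the 254 nm libraries. The 4 libraries without crosslinking gave 0.657% to 0.712%, so the 254 nm share was near that of cells without crosslinking and the 365 nm share over 2-fold above it. The difference between the crosslinked groups was 0.944 percentage points (exact permutation p 0.333, the smallest that 2 against 2 can give).

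Targets of NRF2, the transcription factor of the oxidative stress response, gave 11 higher and 2 lower of 19 tested, median 1.24. With library totals 2 were higher and 6 lower, median 0.25. The list median lay 1.33 above that of all genes with TMM factors and 1.34 above it with library totals. FTH1 and FTL, the ferritin chains that store iron, measured 2388 and 1652 CPM against 443 and 524, and 6615 and 3885 CPM against 1081 and 1685, both from split tags. NQO1, a quinone reductase, measured 66.2 and 56.7 CPM against 14.1 and 15.6 from split tags. The lower members were GCLC, the catalytic subunit of glutathione synthesis, at 7.85 and 5.60 CPM against 25.9 and 15.1 and SRXN1, sulfiredoxin, at 6.73 and 4.90 CPM against 16.8 and 18.6, and both lost their call without 365 nm library B. The count of higher members was 6 without 254 nm library A, where FTL was among those not called, at a log2 fold change of 1.62.

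Translation factors and other mRNAs with a 5′ terminal oligopyrimidine tract (TOP mRNAs, whose translation follows growth signals) gave 23 higher and 1 lower of 33, median 1.41, and 12 and 6 with library totals. Without 254 nm library A 15 were higher. EEF1G, an elongation factor subunit, measured 4144 and 2214 CPM against 536 and 654, and EIF4G1, the scaffold of cap-dependent initiation, 2248 and 2817 CPM against 652 and 615. RACK1, a scaffold on the small ribosomal subunit, measured 227 and 151 CPM against 53.6 and 29.3. With split tags, EEF2, the translocation factor, measured 20428 and 15117 CPM against 4438 and 3678 and PABPC1, the poly(A)-binding protein, 1814 and 1632 CPM against 417 and 375. EEF1A1, the factor that delivers aminoacyl-tRNA, also has split tags and measured 111 and 81.2 CPM against 8.63 and 9.28. It was the 1 gene of the list that was higher with 4SU alone, at 96.9 and 65.8 CPM against 11.2 and 22.1 in untreated cells.

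The 75 tested cytosolic ribosomal protein genes all had a log2 fold change above 0, and 50 passed the test with 0 lower, median 1.36. The count was 1 without 365 nm library A and 5 without 254 nm library A. RPL3, of the large subunit, kept its call in every fit that left out 1 library, at 6782 and 3579 CPM in the 365 nm libraries and 1074 and 1199.8 CPM in the 254 nm libraries, from split tags. RPLP0 measured 14554 and 6883 CPM against 2003 and 2989.6 and was not called without 365 nm library A, at a log2 fold change of 1.47. Both genes were higher in 365 nm library A than in library B. As a share of all tags the list overlapped between groups, at 32.1% and 22.6% in the 365 nm libraries and 18.2% and 24.03% in the 254 nm libraries (exact permutation p 0.667). With library totals 3 of the 75 were higher and the median was 0.31.

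Subunits of the respiratory chain and ATP synthase also had more higher than lower members, with 38 higher and 2 lower of 80, median 0.97, and 6 without 365 nm library A and 7 without 254 nm library A. NDUFV1, which holds the flavin of complex I, measured 1628 and 1096 CPM against 324 and 367, and ATP5F1A, a catalytic-head subunit of ATP synthase, 154 and 76.3 CPM against 21.4 and 8.79. Their tag share overlapped too, at 4.02% and 3.68% against 3.26% and 4.05%. With library totals 3 were higher and 16 lower, median -0.04 beside -1.08 for all genes. Subunits of the mitochondrial ribosome, encoded like these in the nucleus, had more lower members, with 3 higher and 16 lower of 74, median -0.35. MRPL15 measured 41.5 and 51.8 CPM against 141 and 197 and MRPL39 28.0 and 31.5 CPM against 70.9 and 113. The count of lower members was 5 without 365 nm library A, 8 without 365 nm library B and 6 without 254 nm library B.

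**Figure D2:**
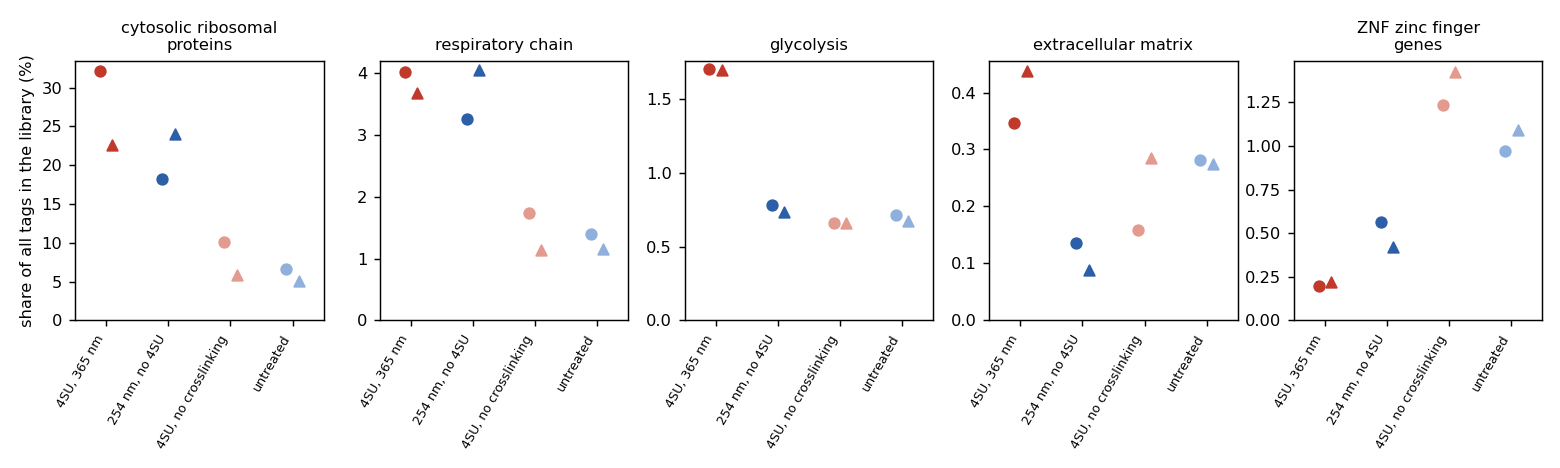
Share of all tags (%) taken by 5 gene groups in the 8 libraries, without scaling; circles are libraries A and triangles libraries B. Ribosomal protein and respiratory chain shares of the 365 nm and 254 nm libraries overlap, whereas glycolysis (1.70% and 1.70% against 0.779% and 0.732%), extracellular matrix and ZNF shares do not.

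Of 32 tested immediate-early and ultraviolet response genes, which growth factors and radiation induce within minutes, 0 were higher and 9 lower, median -0.81. Beside MYC these included HES1, a transcriptional repressor of the Notch pathway, at 19.1 and 18.9 CPM in the 365 nm libraries and 87.2 and 70.3 CPM in the 254 nm libraries (log2 fold change -2.05, SE 0.37, edgeR adjusted p 4.53e-05). IER5, an early response gene, measured 40.4 and 20.3 CPM against 182 and 128, and BTG2, an antiproliferative gene, 4.49 and 7.003 CPM against 25.4 and 21.5. BTG2 was at 42.4 and 46.3 CPM in untreated cells, above both procedures. Against untreated cells, 3 of the 32 genes were higher and 9 lower after 254 nm, median -0.39 beside -0.14 for all genes. These were 9.38% and 28.1%, beside 25.2% and 28.0% of all genes, so the lower count is at the background. Against 4SU alone, 2 were higher and 16 lower after 365 nm, median -1.27 beside -0.50 for all genes. These were 6.25% and 50%, beside 26.1% and 33.7% of all genes. JUN, part of the AP-1 transcription factor, measured 216 and 126 CPM against 718 and 319.9, and was not called without 365 nm library B or 254 nm library A, at log2 fold changes of -1.27 and -0.92. The count of lower members was 5 without 365 nm library B and 5 without 254 nm library A.

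Ribosome biogenesis factors, the nucleolar proteins that process ribosomal RNA, gave 3 higher and 16 lower of 45, median -0.71, and for the lower members 9 without 365 nm library A and 8 without 365 nm library B. BYSL, needed for the small subunit, measured 30.3 and 37.8 CPM in the 365 nm libraries and 140.4 and 150.4 CPM in the 254 nm libraries (log2 fold change -2.08, SE 0.35, edgeR adjusted p 1.79e-05). RRS1, needed for the large subunit, measured 13.5 and 24.5 CPM against 95.9 and 64.5, and GNL3, nucleostemin, 48.2 and 49.7 CPM against 123 and 168. BYSL stood at 55.2 and 42.9 CPM in untreated cells and 91.5 and 69.5 CPM with 4SU alone, so the 254 nm level was the highest of the 4 groups and the 365 nm level the lowest.

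Heat shock chaperones of the cytosol and mitochondria gave 4 higher and 7 lower of 24, median -0.44. These were 16.7% and 29.2%, beside 15.2% and 12.5% of all genes, so the higher count is near the background. With library totals 1 was higher and 16 lower, median -1.41. HSPA1A, the inducible Hsp70, measured 51.6 and 34.3 CPM in the 365 nm libraries and 257 and 149 CPM in the 254 nm libraries (log2 fold change -2.26, SE 0.37, edgeR adjusted p 9.77e-06), and its co-chaperone DNAJB1 63.9 and 37.8 CPM against 264 and 187. HSPA1A has a near-identical copy, HSPA1B, also lower, and the division of tags between them is uncertain. HSPA8, the constitutive Hsp70, was lower as well, at 292 and 375 CPM against 1337 and 1661 from split tags. HSP90AB1, the constitutive Hsp90, was higher at 4962 and 5223 CPM against 1359.5 and 1128 from split tags, and HSPD1, the mitochondrial chaperonin, at 1035 and 1390.1 CPM against 389.9 and 369. The count of lower members was 3 without 365 nm library B.

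The ZNF zinc finger genes, a large family of transcriptional repressors with low mRNA levels, gave 10 higher and 40 lower of 357, or 11.2% lower beside 12.5% of all genes, so the count is near the background. Their median of -0.44 was below that of all genes, and 234 of 357 were below 0. They took 0.196% and 0.222% of tags in the 365 nm libraries and 0.563% and 0.422% in the 254 nm libraries, without overlap (exact permutation p 0.333, the smallest possible), where untreated cells gave 0.971% and 1.09%. The members with the largest fitted changes had few tags. ZNF215 had 0 tags in the 365 nm libraries and 11 in the 254 nm libraries, and ZNF25 0 and 9. ZNF117 had 4 tags against 0, and ZNF488 1 against 22. The count of lower members was 21 without 365 nm library A, 8 without 365 nm library B and 17 without 254 nm library A, and of higher members 3 without 365 nm library A, 6 without 254 nm library A and 4 without 254 nm library B.

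Genes of S-phase entry and DNA replication gave 5 higher and 12 lower of 37, median -0.62, with 7 without 365 nm library A and 5 without 365 nm library B for the lower ones. The higher count was 3 without 365 nm library A, 1 without 365 nm library B and 1 without 254 nm library B. PCNA, the sliding clamp of DNA polymerases, measured 108 and 139 CPM against 385 and 383, CDC45, of the replicative helicase, 29.2 and 44.1 CPM against 118 and 125, and CDC6, which licenses origins, 32.5 and 27.3 CPM against 164 and 166 from split tags. POLA1, a DNA polymerase catalytic subunit, was higher at 71.8 and 88.9 CPM against 23.2 and 29.3. With library totals 0 genes of this list were higher and 26 lower, median -1.63. Genes of G2 and mitosis gave 1 higher and 5 lower of 42, below the share of all genes, and a median of -0.50. The lower count was 1 without 365 nm library A, 1 without 365 nm library B, 3 without 254 nm library A, 9 without untreated library A and 9 without untreated library B. PLK1, a mitotic kinase, measured 99.8 and 106 CPM against 261 and 252, and was not called without 365 nm library A, at a log2 fold change of -1.26.

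Pyrimidine metabolism, through which cells make and salvage uridine, gave 4 higher and 6 lower of 22, median -0.08. These were 18.2% and 27.3%, beside 15.2% and 12.5% of all genes, so the higher count is near the background. The list median was 0.11 with RLE factors, 0.11 with DESeq2 and 0.16 with the length trend removed. The medians of all genes in these fits were 0.08, 0.09 and -0.01. With library totals the list median was -1.09, beside -1.08 for all genes, with 0 members higher and 11 lower. The lower members included enzymes of synthesis. CAD, which catalyses the first steps, measured 65.1 and 74.2 CPM against 163 and 184 (log2 fold change -1.31, SE 0.35, edgeR adjusted p 0.00372), and was not called without 365 nm library A. UMPS, which makes uridine monophosphate, measured 14.6 and 15.4 CPM in the 365 nm libraries and 84.1 and 78.6 CPM in the 254 nm libraries (log2 fold change -2.43, SE 0.38, edgeR adjusted p 4.77e-06). CTPS1, which makes CTP from UTP, measured 39.3 and 44.1 CPM against 155 and 184, and DHODH, of the inner mitochondrial membrane, 4.49 and 9.10 CPM against 29.5 and 23.9 from split tags. DHODH was not called without 365 nm library A, at a log2 fold change of -1.55, where the count of lower members was 2. The count of higher members was 2 without 365 nm library A and 2 without 254 nm library A.

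RNA-binding proteins, the class that CLIP experiments address, included large increases among the hnRNPs, abundant nuclear proteins that coat pre-mRNA. SR proteins and hnRNPs together gave 14 higher and 4 lower of 43, median 0.30, or 5 and 18 with library totals, median -0.64. HNRNPA2B1 measured 6575 and 7202 CPM in the 365 nm libraries and 1093 and 878 CPM in the 254 nm libraries (log2 fold change 2.81, SE 0.49, edgeR adjusted p 2.29e-05). HNRNPC measured 139 and 208 CPM against 33.6 and 35.6, and, from split tags, HNRNPL measured 1688 and 1971 CPM against 196 and 118. SRSF1, a splicing activator, measured 360.1 and 487 CPM against 129 and 95.2. The splicing regulators TRA2B and SRSF5 were lower, at 99.8 and 116 CPM against 338 and 297, and 47.1 and 57.4 CPM against 148 and 209. The count of higher members was 7 without 365 nm library B and 8 without 254 nm library B, and of lower members 2 without 365 nm library A, 2 without 365 nm library B and 2 without 254 nm library A.

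Of 27 tested proteins whose binding sites have been mapped by CLIP, 4 were higher and 2 lower, near or below the shares of all genes, and 2 and 10 with library totals. The higher ones were HNRNPC, AGO4, QKI and AGO1, and the count was 2 without 365 nm library B and 2 without 254 nm library B. AGO4, an Argonaute protein, rested on 18 tags against 3, a log2 ratio of 3.46 (95% exact counting interval 1.68 to 5.86), and lost its call without 365 nm library B. QKI lost it without 365 nm library A or 254 nm library B, at log2 fold changes of 1.72 and 1.53. FXR2, a relative of the fragile X protein, was lower at 47.1 and 38.5 CPM against 125 and 107, and DGCR8, of the microRNA processor, at 34.8 and 33.6 CPM against 75.4 and 76.7. FXR2 lost its call without 365 nm library B, at a log2 fold change of -1.31, and DGCR8 without any 1 crosslinked library. Known targets of HuR, an RNA-binding protein that stabilises mRNAs with AU-rich elements, gave 5 higher and 7 lower of 33, median -0.08. With RLE factors or DESeq2 this median was 0.10, where that of all genes was 0.08 or 0.09. The higher count was near the 15.2% of all genes, and with library totals 1 was higher and 16 lower. The higher count was 1 without 365 nm library B, 2 without 254 nm library A and 2 without 254 nm library B, and the lower count 2 without 365 nm library B and 3 without 254 nm library A. CTNNB1, beta-catenin, was the largest increase among them, at 643 and 1001 CPM in the 365 nm libraries and 103 and 63.0 CPM in the 254 nm libraries (log2 fold change 3.31, SE 0.41, edgeR adjusted p 6.20e-08).

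**Figure D3:**
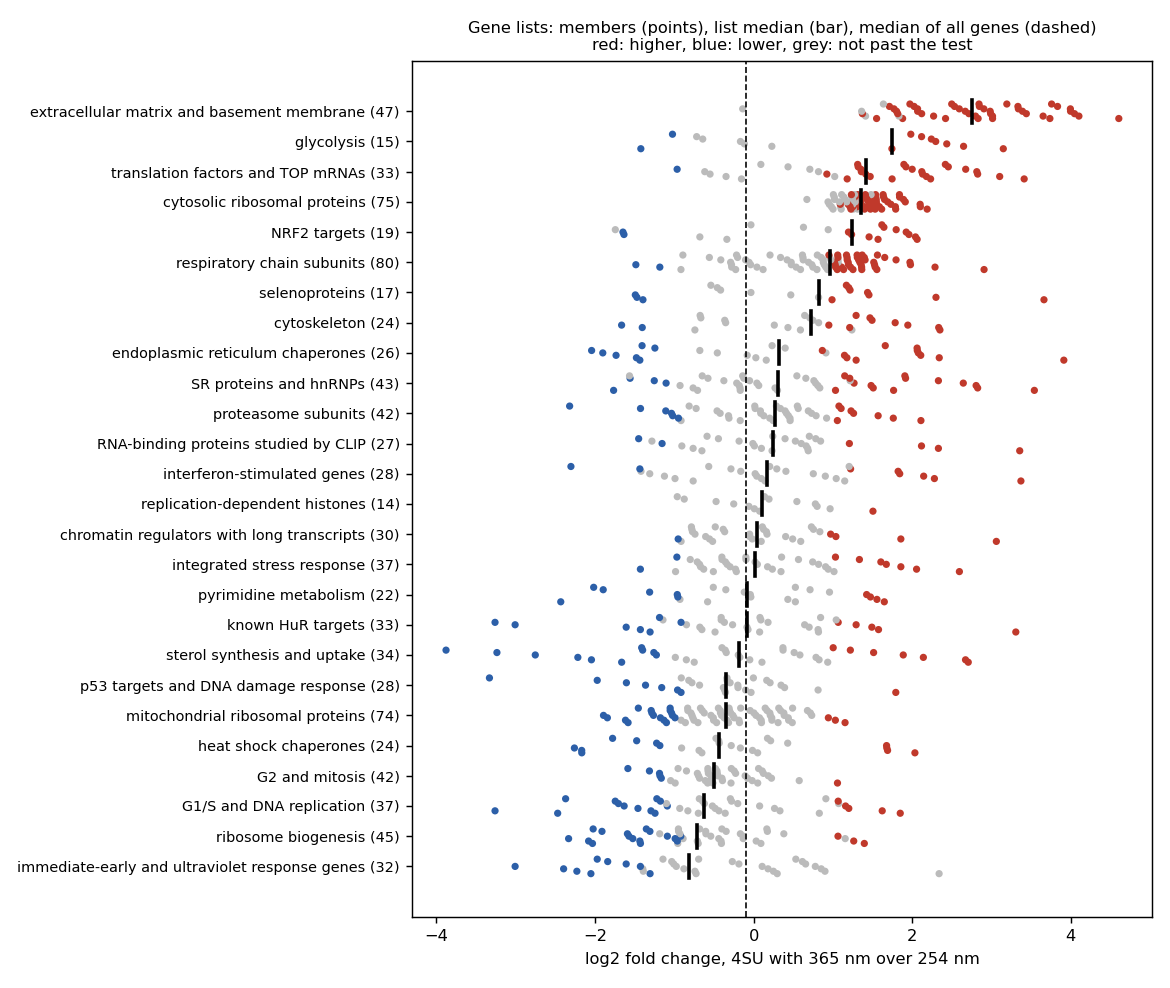
Log2 fold change of the 365 nm over the 254 nm libraries for tested members of each pathway list (points, number in brackets), with the list median (bar) and the median of all genes, -0.10 (dashed line); red and blue points passed the test. List medians run from -0.81 for immediate-early and ultraviolet response genes to 2.76 for extracellular matrix genes, a list drawn up after values were seen and plotted without COL20A1.

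Part of the comparison can be set beside the 4SU-alone and untreated libraries, which share no sample with it. Without crosslinking, 4SU changed 7.55% of tested genes: 529 were higher (3.85%) and 508 lower (3.7%) with 4SU than in untreated cells. Of the 529 genes 70 were higher in the 365 nm libraries and 7 lower, or 13.2% and 1.32%, beside 15.2% and 12.5% of all tested genes. Of the 508 genes 105 were higher and 120 lower, or 20.7% and 23.6%. These 70 and 120 genes made up 3.35% of the genes that were higher and 7.02% of those that were lower. The 2 counts with 4SU alone were 189 and 50 without 4SU-alone library A, 302 and 199 without 4SU-alone library B, 1297 and 1405 without untreated library A, and 330 and 251 without untreated library B. Between the procedures the 529 genes had a median of 0.66 (log2) and the 508 genes one of -0.20.

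The integrated stress response, which raises amino acid synthesis when translation initiation is inhibited, had more called genes with 4SU alone. There 12 of 37 tested genes were higher and 0 lower, median 0.77. Between the procedures 7 were higher and 2 lower, or 18.9% and 5.41%, beside 15.2% and 12.5% of all genes, so the higher count is near the background. The median was 0.02. With library totals 1 was higher and 18 lower, median -1.05 beside -1.08 for all genes. Of the 12 genes called with 4SU alone, 1 was higher between the procedures. That gene, NUPR1, measured 48.2 and 11.2 CPM against 9.09 and 4.40 and lost its call without 365 nm library A or 254 nm library B. CHAC1, which degrades glutathione, measured 53.1 and 57.7 CPM in the libraries with 4SU alone and 13.9 and 6.12 CPM in the untreated ones, but 40.4 and 18.9 CPM against 34.99 and 20.5 between the procedures (log2 fold change 0.05, SE 0.42, edgeR adjusted p 0.953). TRIB3, a pseudokinase induced in this response, measured 115 and 35.4 CPM against 22.3 and 8.78, but 61.7 and 21.009 CPM against 53.6 and 51.8 after crosslinking. The higher members were mostly enzymes not called with 4SU alone. BCAT1, a transaminase of branched-chain amino acids, measured 97.6 and 124 CPM against 17.7 and 19.0, WARS1, the tryptophanyl-tRNA synthetase, 664 and 786 CPM against 233 and 222, and SHMT2, which makes one-carbon units in mitochondria, 2013 and 1628 CPM against 572 and 434 from split tags. The count of higher members was 4 without 254 nm library B.

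Genes of sterol synthesis and uptake, controlled by the SREBP transcription factors, fell in part with 4SU alone, where 8 of 34 were lower and 0 higher. Of those 8, 6 were also lower in the 365 nm libraries and 1, LSS, was higher. IDI1, which isomerises isopentenyl diphosphate, measured 44.0 and 38.4 CPM with 4SU alone against 211 and 353 in untreated cells, and 17.9 and 23.1 CPM against 157 and 124 between the procedures. Its log2 fold changes were -2.77 and -2.75. SQLE gave -2.88 and -3.24. The 254 nm level of both genes was below both untreated libraries, as SQLE shows at 233 and 108 CPM against 374 and 309. Between the procedures 7 genes of the list were higher and 10 lower, median -0.18, or 0.09 with the length trend removed. With library totals 3 were higher and 17 lower, median -1.18. The count of higher genes was 4 without 365 nm library B, and of lower genes 6 without 365 nm library A, 6 without 365 nm library B and 5 without 254 nm library A. LSS lost its call without 365 nm library B or either 254 nm library.

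The higher genes of the sterol list were FADS1, SCD, FADS2, ACLY, CYP51A1, SREBF2 and LSS. SCD, the stearoyl-CoA desaturase, measured 1712 and 2048 CPM in the 365 nm libraries and 324 and 266 CPM in the 254 nm libraries (log2 fold change 2.67, SE 0.42, edgeR adjusted p 4.73e-06). The desaturases FADS1 and FADS2 measured 553 and 594 CPM against 71.8 and 104, from split tags, and 1299 and 1347 CPM against 259 and 341. ACLY, which supplies acetyl-CoA, measured 635 and 1094 CPM against 281 and 187. None of these 4 passed the test with 4SU alone, where their log2 fold changes were -0.48, -0.21, 0.44 and -1.15.

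**Figure D4:**
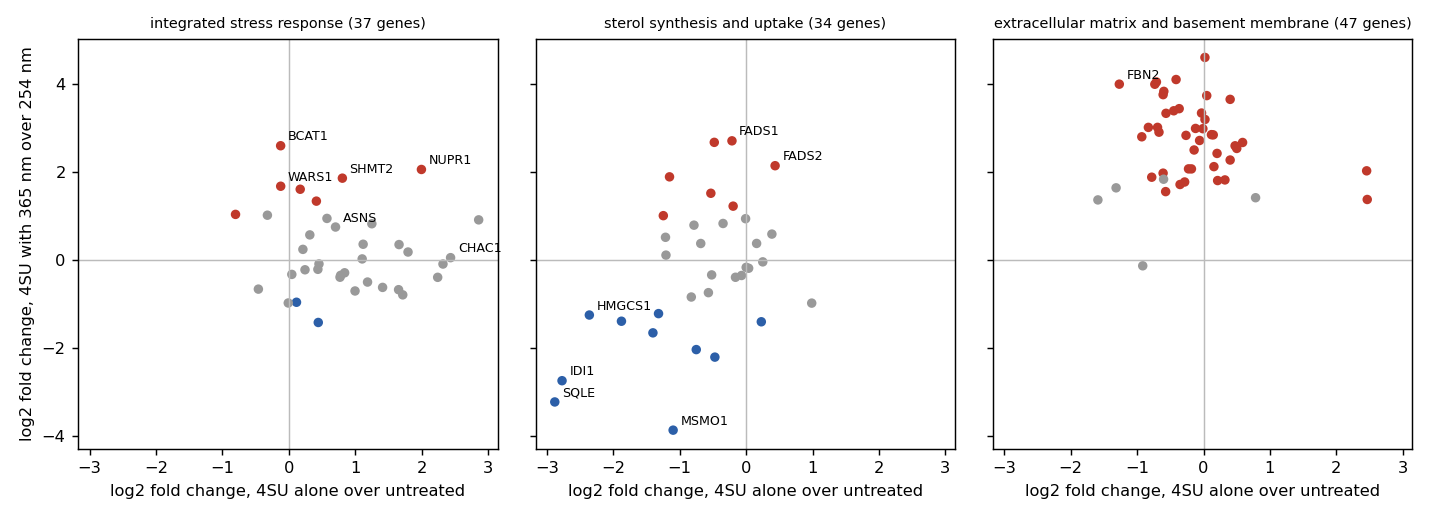
Log2 fold change with 4SU alone over untreated cells (x axis) and of the 365 nm over the 254 nm libraries (y axis) for 3 gene lists; red and blue points passed the test between the procedures. Sterol genes such as IDI1 (-2.77 and -2.75) are low on both axes, stress response genes such as CHAC1 (2.44 and 0.05) are high on x and near 0 on y, and matrix genes are high on y.

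The effect of 365 nm crosslinking (against 4SU alone) and that of 254 nm crosslinking (against untreated cells) were compared by a term for their difference, in the same fit. Crosslinking at 365 nm changed 59.9% of tested genes and at 254 nm 53.2%. Over all tested genes the median log2 effect was -0.50 at 365 nm and -0.14 at 254 nm, and that of the difference -0.15. List and class medians of these effects are read against those values. The term shares the crosslinked libraries with the comparison above, so its calls are no separate evidence. The effect at 365 nm was above that at 254 nm for 1372 genes (9.99%) and below it for 972 (7.08%), and 4337 genes had an unadjusted p under 0.05. All 12 of the largest increases and 11 of the 12 largest decreases passed this test, SQLE being the exception with a difference of -0.35 (edgeR adjusted p 0.7). The matrix genes passed it for 38 of 48, none lower. Of 75 ribosomal protein genes 1 passed: the log2 effect of crosslinking had a median of 3.72 at 365 nm and 2.75 at 254 nm. For glycolysis the medians were 3.36 and 0.73, and 8 of 15 genes passed. For the integrated stress response they were -1.08 at 365 nm and within 0.01 of 0 at 254 nm, and the difference was negative past the test for 10 of 37 genes. Without 365 nm library B, 861 genes were above and 246 below. The number below was 388 without 365 nm library A, 405 without 4SU-alone library A, 457 without 254 nm library A, 638 without 254 nm library B and 1857 without untreated library A.

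The crosslinking effects followed transcript length, and the comparison between procedures did so far less. The deposited length and GENCODE transcripts could be matched for 10966 of 11200 named genes (97.9%). In the class with the shortest transcripts of 5, 361 to 1809 nt, the median log2 effect was 1.43 at 365 nm and 1.56 at 254 nm. In the class with the longest, 5169 to 101519 nt, it was -1.46 and -1.60. The medians between the procedures in the 5 length classes, from the shortest, were 0.08, -0.37, -0.28, -0.09 and 0.08. Across genes Spearman's rho with length was -0.48 for the 365 nm effect, -0.70 for the 254 nm effect and 0.05 for the comparison between procedures, as a description over genes that share the same libraries. With uridine content rho was -0.26, -0.53 and 0.06. Weighted by tags, transcripts had a median length of 1147 and 1431 nt in the 365 nm libraries and 1534 and 1305 nt in the 254 nm libraries (exact permutation p 0.667).

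Genes with 1 or 2 exons were called lower more often than other genes. This split was made after values were seen and is a description. Of 235 genes with 1 exon 5.11% were higher and 30.2% lower, median -0.93 on the log2 scale. Of 479 genes with 2 exons 4.59% were higher and 28.2% lower, median -0.74. Of 1569 genes with over 20 exons 21.8% were higher and 5.42% lower, median 0.15. The classes between had medians from -0.23 to -0.06. The 365 nm effect had a median of -1.37 for 1 exon and -0.76 for over 20 exons, whereas the 254 nm effect had -0.13 and -1.15. Within each of 4 equal classes of transcript length, genes with 1 or 2 exons had a lower median than genes with 3 or more: -0.65 against 0.06 in the shortest, -1.16 against -0.31, -0.93 against -0.12, and -0.43 against 0.07 in the longest. Genes with 1 or 2 exons were 14.4% of the genes called lower, 2.03% of those called higher and 6.51% of all. CCDC71, TMEM177 and FADD with 2 exons, HPS6, IER5, HSPA1A, JUN and RRS1 with 1, were among them, each named above among lower genes.

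**Figure D5:**
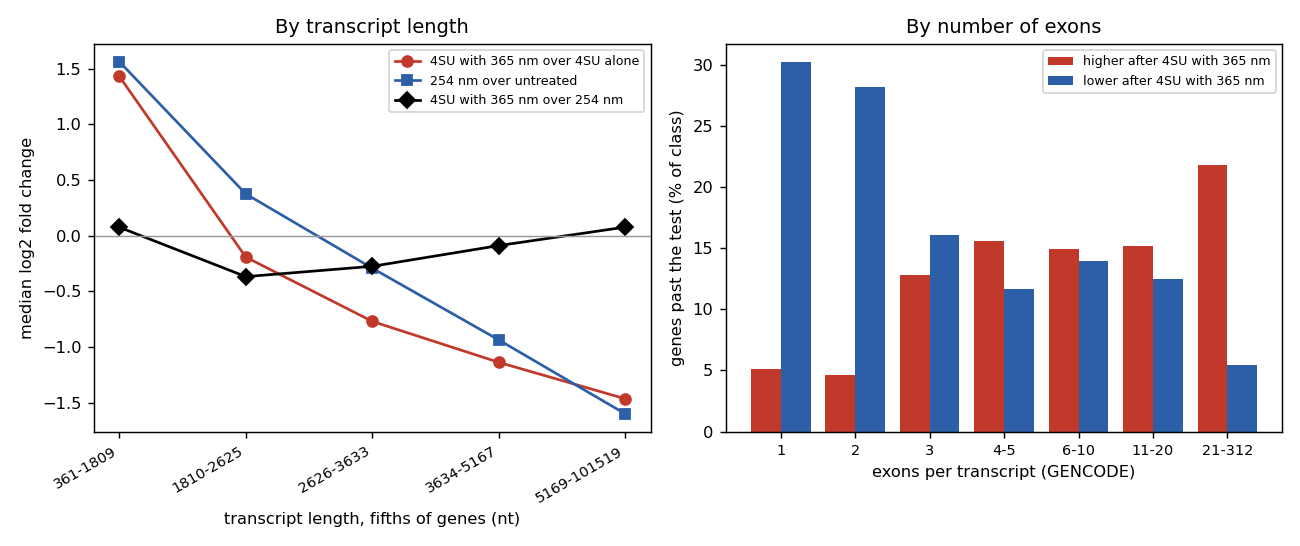
Left, median log2 fold change in 5 equal classes of genes by transcript length (nt) for the effect of each crosslinking and for the comparison between procedures. Right, percent of genes past the test in each direction by number of exons: 30.2% of 1-exon genes were lower after 4SU with 365 nm, against 5.42% of genes with over 20 exons.

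Cytoskeletal genes gave 9 higher and 2 lower of 24, median 0.73, with the actin regulators CFL1 at 6545 and 4765 CPM against 1071 and 1149 and PFN1 at 13128 and 8969.6 CPM against 2164 and 2220.0, the second from split tags. Without 365 nm library A or B or 254 nm library B, 5 were higher. Selenoproteins gave 8 higher and 3 lower of 17, median 0.82, with SELENON, of the endoplasmic reticulum membrane, at 1347 and 1009 CPM against 111 and 74.7 from split tags, and the secreted peroxidase GPX3 at 712 and 430.0 CPM against 101 and 130.4. Without 365 nm library A or 254 nm library A, 3 were higher. Proteasome subunits gave 8 higher and 6 lower of 42, median 0.27, near the 15.2% and 12.5% of all genes. PSMD2, of the regulatory particle, was higher at 1484 and 1649 CPM against 334 and 391.6, and PSMC6, an ATPase of the same particle, lower at 8.97 and 13.3 CPM against 55.0 and 59.6. Of the proteasome genes 3 or 4 were higher without any 1 crosslinked library, and 1 or 2 lower without 365 nm library A, 365 nm library B or 254 nm library B. With library totals the median turned negative for the cytoskeletal list (-0.29), the selenoproteins (-0.22) and the proteasome (-0.70), each above the -1.08 of all genes.

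Targets of p53 and the DNA damage response gave 1 higher and 7 lower of 28, median -0.35. CCNG1 was the 1 higher gene, at 276 and 350.2 CPM against 103 and 78.1. The count of lower members was 3 without 365 nm library A, 2 without 365 nm library B, 4 without 254 nm library A and 3 without 254 nm library B. Interferon-stimulated genes gave 6 higher and 2 lower of 28, or 21.4% and 7.14%, beside 15.2% and 12.5% of all genes. Chromatin regulators with long transcripts gave 4 higher and 1 lower of 30, below both shares of all genes. The higher count of the chromatin list fell without 365 nm library B or either 254 nm library. CHD3, a remodelling ATPase of that list, measured 866 and 877 CPM against 91.8 and 117. IFI6, an interferon-induced mitochondrial protein, measured 101 and 65.1 CPM against 18.2 and 19.0, and the count of higher interferon genes was 3 without 254 nm library A. Of 64 replication-dependent histone genes 14 were tested and 1, H2BC12, was higher, from split tags. The medians of the interferon, chromatin and histone lists, 0.17, 0.04 and 0.11, turned negative with library totals, where that of all genes was -1.08. Of the 11 tested HEK293 markers 3 were lower and 0 higher: IRS4, a docking protein of insulin signalling, measured 14.6 and 16.1 CPM against 74.5 and 36.6, NEFH 2.24 and 2.10 CPM against 9.54 and 8.79 and HOXD10 12.3 and 8.40 CPM against 24.1 and 21.5. IRS4 lost its call without 254 nm library A, at a log2 fold change of -1.24, and the other 2 without any 1 of the 4 crosslinked libraries.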

How the data were processed

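Polyadenylated RNA of HEK293 cells was sequenced by the authors, who deposited 1 table per library with expected counts of tags per transcript and the transcript length. Per the file headers these expected counts are not normalized, and fractional values mark tags divided among transcripts they match, called split here. Aligner, build and annotation were not given in the sources used here. Expected counts were rounded. Of 23881 transcripts, 15380 were named from a RefSeq table and 124 from GENCODE 29 alone, and 8377 kept their accession. Of the 13730 genes tested after filtering, 11200 had a symbol. Transcripts were summed to 23868 features, called genes.

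All 8 libraries of the 4 groups entered 1 edgeR 4.0.16 quasi-likelihood fit (R 4.3.3) with TMM factors and filterByExpr, because 2 libraries per group share 1 estimate of the spread. The residual degrees of freedom were 4, the prior ones 40.3, and the biological coefficient of variation was 0.244. Tests were two-sided, with Benjamini-Hochberg adjustment over 13730 genes and a threshold of 0.05. Normalised CPM divide tags by library size and TMM factor, 0.372 and 0.499 in the 365 nm libraries and 0.988 and 0.780 in the 254 nm libraries. Alternatives were other scalings, DESeq2 1.42.0, other filters and thresholds, the contrast's groups alone, a replicate block, removal of the length trend, and each library left out. The 2 siRNA libraries were not used. Shares of tags were compared by exact permutation (scipy 1.17.1). Intervals on tags cover counting error only.

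The rule for named genes took the 12 largest changes in each direction among well-expressed genes with groups apart, up to 4 called members per list and the 5 largest differences of effects in each direction. The members and lists were chosen with earlier results of these data known. Outside the rule, these were chosen after their values were seen: ACLY, AGO1, CAD, CDC45, CHAC1, COL4A1, COL4A2, CYP51A1, DERL2, DGCR8, EEF1G, EEF2, EIF4G1, FADS2, FN1, GCLC, GNL3, HSP90B1, HSPA5, HSPD1, LAMB1, LAMC1, LSS, NID2, PABPC1, PCNA, PDIA3, PDIA4, PFKP, POLA1, RACK1, SCD, SLC2A1, SPARC, SRSF1, SRSF5, SREBF2, SRXN1, TRA2B, TRIB3 and XBP1.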

Additional observations from a re-analysis of the deposited data

Results flagged for a closer look

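The effect of crosslinking at 365 nm on 4SU-fed cells and that of crosslinking at 254 nm on untreated cells differed past the test for 1372 genes in one direction and 972 in the other. Under the filter given below, the genes with the largest positive difference, on the log2 scale, were TXNDC16 at 5.61, ACTR2 at 5.60, PEG10 at 5.50, FBN2 at 5.26 and PRKDC at 5.19. The largest negative differences under the same filter were those of FADD at -3.59, CCDC71 at -3.48, MED9 at -3.23, RAB9A at -3.08 and KTI12 at -3.01. MED9, a subunit of the Mediator complex, and KTI12, which acts in tRNA modification, lost their call between the procedures without 365 nm library B. The other 8 genes kept theirs without any 1 library. The 10 genes were the largest 5 in each direction among well-expressed genes with a symbol that passed the test for the difference. The filter also required every library difference at 365 nm to lie beyond every one at 254 nm. Their size and separation are therefore a description.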

How the results depend on the processing

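The 24 largest changes kept direction and call under every alternative tried, and none of the 132 genes past the test that the naming rule took changed direction. Of those 132, 43 lost the call in at least 1 of the fits that left out a library and 24 with library totals. Genes higher in the 365 nm libraries numbered 631 with library totals, 1356 at an adjusted p under 0.01 and 1267 to 2394 with 1 library left out, and genes lower numbered 5885, 862 and 628 to 2179, or 954 with DESeq2. For the difference of effects, genes above numbered 494 with library totals, 875 at 0.01 and 861 to 1663 with 1 library left out. Genes below numbered 4458, 258 and 246 to 1857, or 453 with DESeq2 and 607 with RLE factors. With 4SU alone, genes higher numbered 257 with DESeq2, 228 at 0.01 and 189 to 1297 with 1 library left out. Genes lower numbered 279 with those 2 groups alone, 236 with library totals, 141 at 0.01 and 50 to 1405. A replicate block on the letters gave 2239 higher and 1949 lower genes between the procedures, 1555 and 1349 for the difference of effects, and 862 and 832 with 4SU alone. The letters were not taken as pairs, since the A minus B deviations correlated across genes at -0.05 between the compared groups, 0.42 between 4SU alone and untreated, and -0.25 to 0.27 between the other pairs of groups. With 1 library left out the difference in ribosomal protein share ran from 1.53 to 10.97 percentage points, and that in tag-weighted length from -272.5 to 11.5 nt. Where 1 library was left out, the remaining one was assumed to vary like the other groups. The cause of these shifts was not tested. Depth limits low genes: 3 tags equal 0.968 to 1.34 per 1000000 tags before TMM scaling, and for CCDC71 they equalled 3.37 and 2.10 CPM in the 365 nm libraries.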
